A study of Mus musculus with 6 samples.

Results

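Glycolysis turns glucose into pyruvate, and the pyruvate is then either reduced to lactate or carried into mitochondria and burned. The genes described here encode the enzymes of that route in cortical bone tubes, from the hexokinases to lactate dehydrogenase, together with the enzymes that govern the entry of pyruvate into mitochondria and a few that run the route in reverse. The list named 34 genes. They were found by their symbol on the array, where 30 of the 34 stood among 31508 different symbols, and the remaining 4 stood under an older symbol. *Gapdh* is listed as *Gapd*, *Ldha* as *Ldh1*, *Ldhb* as *Ldh2* and *Pfkfb4* as *C230090D14*, and these 4 genes are described beside the 30 and are not counted with them.

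The tissue was the shaft of the tibia and femur of C57BL6 mice. Their age was 3 months in the sample labels and 2–3 months in the methods. The shafts were stripped of bone ends and marrow and then digested with collagenase and trypsin to clear the cells of the bone surfaces. The paper describes what remained as tubes of bone matrix that held mostly osteocytes, the cells embedded in that matrix. The tubes rested overnight in medium with fetal calf serum, and were then either left untreated (Ctr, 3 arrays) or given 250 nM Pth 1-34, the active fragment of parathyroid hormone (PTH), for 24 hours (Pth, 3 arrays). RNA was pooled from the bones of 4–5 mice in each experiment, so a difference between animals cannot be seen, and p-values measure the spread between arrays, part of which may be technical. Both groups had the same strain, digestion and culture, and the question put to them here is whether the hormone changed the transcripts of glucose breakdown.

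Glycolysis is controlled mostly at its irreversible steps. Hexokinase traps glucose as glucose 6-phosphate, phosphofructokinase commits it to breakdown, and pyruvate kinase releases pyruvate. The pyruvate dehydrogenase complex then converts pyruvate to acetyl-CoA, and pyruvate dehydrogenase kinases shut that complex off. Bone-forming cells are known for making much lactate even when oxygen is plentiful, and PTH has long been known to raise lactate output in bone.

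The signals of the array's 45281 probes were corrected for background, raised by an offset of 16, quantile normalized between arrays and expressed as log2, so that a difference of 1 is a doubling. A probe was tested if it stood above the negative controls (detection p under 0.05) on at least 3 of the 6 arrays, which held for 16214 probes and 11979 genes. Between 15504 and 17374 probes were above background on an array. A gene was called if its limma p, adjusted over every tested probe, was under 0.05 and its fold change at least 1.5, and it was counted by its brightest probe. By this rule 207 genes, or 1.73%, were called, 82 (0.685%) higher and 125 (1.04%) lower with PTH. The osteocyte genes *Dmp1*, *Mepe* and *Phex* were above background on all 6 arrays and *Sost* on 4, while *Fgf23*, another osteocyte gene, and *Runx2*, a regulator of bone-forming cells, were on no array. Markers of other cells were bright as well. Summed over tested markers, which differ in number by cell type, the control log2 signal was 15.34 to 15.43 for osteocytes and osteoblasts. It was 15.86 to 15.87 for neutrophils and myeloid cells, 13.69 to 13.82 for osteoclasts and 13.06 to 13.28 for red cells. The enzyme signals are therefore those of a mixture of cells.

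Of the 30 genes found by symbol, 24 were tested and 2 were called, *Hk3* lower and *Dlat* higher with PTH. That is 8.33% of the tested genes beside 1.73% of all genes, where a single gene weighs 4.17%. The median log2 fold change of the 24 was -0.01, with quartiles of -0.10 and 0.23, beside a median of 0.01 and quartiles of -0.16 and 0.17 over all genes tested. The fold change lay above 0 for 11 genes and below 0 for 13, and under median scaling, which moved the median of all genes to 0.12, these counts became 18 and 6. The PTH and control arrays did not overlap for 5 of the 24 genes, or 20.8%, a share close to the 21.9% of all genes, with *Hk1*, *Pdha1*, *Pdhb* and *Dlat* higher and *Hk3* lower on the PTH arrays. The 95% interval of the change lay wholly within 1.5-fold in either direction for 14 of the 24 genes (58.3%), beside 53.2% of all genes. For those 14 a larger change lay outside the interval. Of the other 10, *Dlat* had an interval wholly above 1.5-fold (0.59 to 1.41 on the log2 scale). For the rest of the 10 the arrays did not settle whether the change was larger. At an unadjusted p under 0.05 the limma test passed 3 of the 24 (12.5%), beside 14.9% of all genes.

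**Figure D1:**
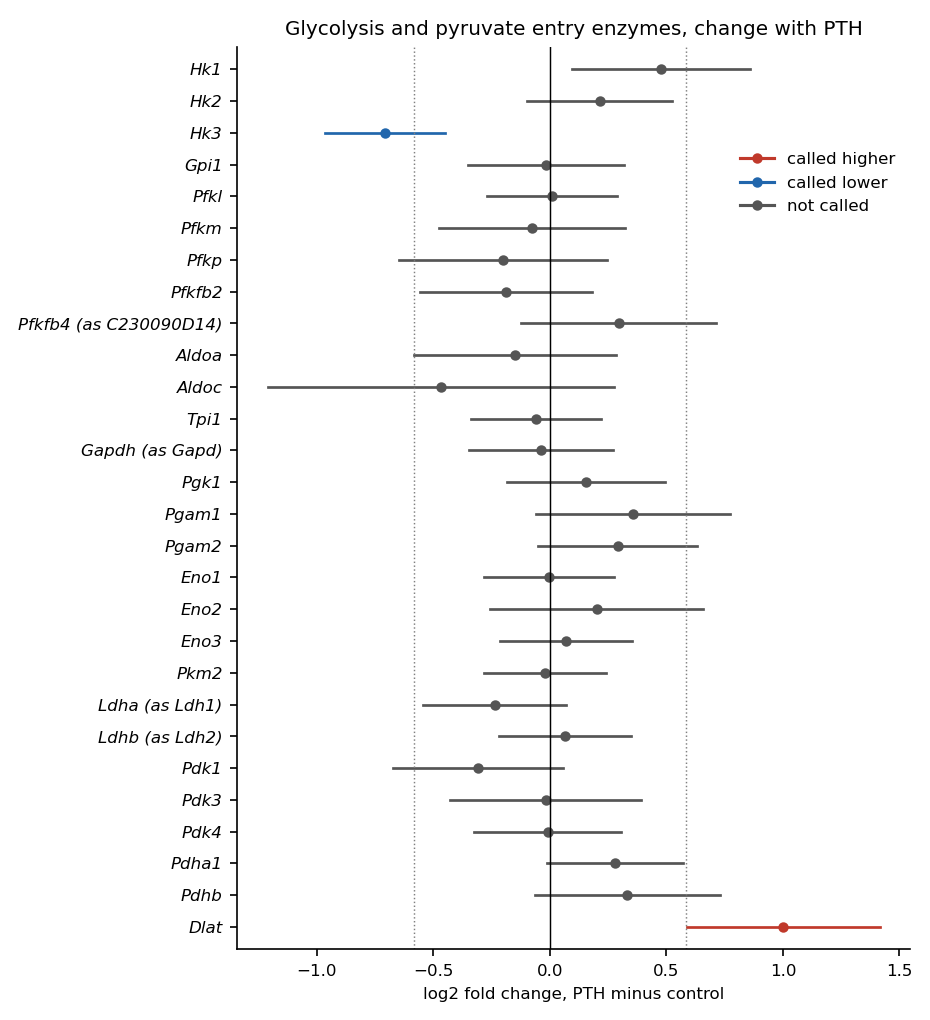
Change of each tested enzyme gene with PTH, in the order of the pathway from hexokinase at the top to the pyruvate dehydrogenase complex at the bottom. Points are the log2 fold change (PTH minus control, 3 arrays each) of the brightest probe, bars are 95% intervals, and dotted lines mark a 1.5-fold change. *Hk3* lies below the other genes at -0.71 and *Dlat* above them at 1.00, and the bars of the trunk enzymes from *Tpi1* to *Pkm2* all reach across 0.

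The 6 genes that could not be tested were *Pfkfb1*, *Pcx* and *Fbp2*, above background on no array, *Pdk2* and *Fbp1*, above it on 1 array each, and *Pfkfb3*, above it on 2. *Pfkfb1* and *Pfkfb3* make an activator of phosphofructokinase, *Pdk2* is a kinase of the pyruvate dehydrogenase complex, *Pcx* (pyruvate carboxylase) feeds pyruvate into glucose synthesis, and *Fbp1* and *Fbp2* are fructose bisphosphatases that run the phosphofructokinase step backwards. No fold change is given for them, and a low signal says only that these probes did not rise above the controls. The arrays on which *Pfkfb3* was seen were numbered 3 in both groups.

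Of the 3 hexokinases, which act first, 1 was called. *Hk1*, the form found in most cells and bound to mitochondria, had normalized log2 signals of 6.53, 6.57 and 6.16 in control tubes and 6.90, 7.08 and 6.70 with PTH. All PTH arrays were above all control arrays, and the log2 fold change was 0.48 (SE 0.17, limma adjusted p = 0.233). In the deposited signals, before any scaling, PTH array 1 (186) lay below control array 2 (199). Without background correction the change of *Hk1* was 0.24 (limma adjusted p = 0.179). *Hk1* did not pass in either case. *Hk2*, the inducible form of muscle, fat and growing cells, read 11.73, 11.65 and 11.58 in control tubes and 11.84, 12.05 and 11.72 with PTH. PTH array 3 fell within the control range, and the change was 0.21 (limma adjusted p = 0.531), with a 95% interval from -0.10 to 0.53.

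*Hk3*, a hexokinase known mainly from neutrophils, monocytes and macrophages, fell. Its log2 signals were 8.27, 8.29 and 8.30 in control tubes and 7.58, 7.56 and 7.60 with PTH, and the arrays of a group lay so close that the SD was 0.02 in each. The groups were well apart, and the change was -0.71 on the log2 scale (SE 0.11, limma adjusted p = 0.0257), which is 1.63-fold lower with PTH. A second *Hk3* probe was above background on no array. In the deposited signals, before any scaling, *Hk3* read 341, 411 and 406 without the hormone and 244, 280 and 369 with it, and there PTH array 3 lay above control array 1. Median scaling kept the direction (-0.58) but not the call (limma adjusted p = 0.690), and with any 1 of the 6 arrays left out the change stayed between -0.72 and -0.69 while the limma adjusted p rose to between 0.0685 and 0.110. In a bulk sample like this one, fewer cells of a type and less RNA per cell cannot be told apart.

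Markers of neutrophils and other granule-bearing myeloid cells, in which *Hk3* is known to be expressed, were also lower with PTH. Of 14 such genes 13 were tested, *Mmp8* being above background on no array, and 8 were called lower, *Ctsg*, *Retnlg*, *Mpo*, *Ngp*, *Prtn3*, *Lcn2*, *Elane* (listed as *NE*) and *Ltf*, most of them granule proteins. All 13 had a fold change below 0, between -1.02 (*Ctsg*) and -0.38 (*Chi3l3*), with a median of -0.76, beside 1.04% of all genes called lower. Summed over the list, the log2 signal was 15.86 to 15.87 on the control arrays and 15.21 to 15.39 on the PTH arrays. The change of *Hk3* at -0.71 lay inside the range of this list. It also lay inside the ranges of the macrophage (-0.80 to 0.39), cartilage (-1.06 to 0.11) and osteocyte and osteoblast (-2.01 to 0.70) markers. Of 9 macrophage markers tested, *Cd163* being on no array, limma called 0. At an unadjusted p under 0.05 limma passed 5 of the 9, beside 14.9% of all genes, and the methods' t-test 5. The median of the 9 was -0.27. *Cd68* (-0.02), *Csf1r* (-0.04) and *Lyz2*, listed as *Lyzs* (0.07), lay near 0, and *Adgre1* (listed as *Emr1*) read -0.27. *C1qc* (listed as *C1qg*), *C1qb*, *C1qa* and *Mrc1* read between -0.58 and -0.80 without passing (limma adjusted p between 0.0576 and 0.169). *Cd14* went the other way, higher on all PTH arrays by 0.39 (limma adjusted p = 0.184). The part of neutrophils or of macrophages in the *Hk3* result was not tested. Under median scaling none of the neutrophil markers was called, as with *Hk3*.

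**Figure D2:**
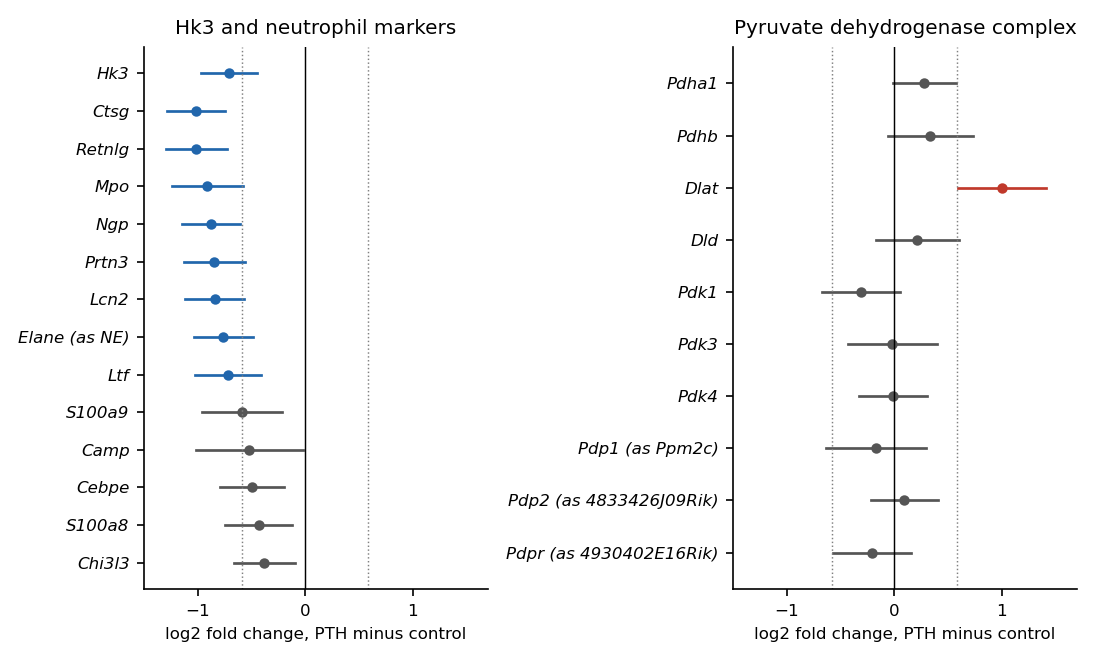
Log2 fold change with PTH (points) and 95% intervals (bars) of *Hk3* with the tested neutrophil and myeloid markers (left), and of the subunits, kinases and phosphatases of the pyruvate dehydrogenase complex (right), from 3 arrays a group. Blue marks genes called lower and red genes called higher, dotted lines mark a 1.5-fold change, and *Hk3* at -0.71 sits among markers that run from -1.02 to -0.38.

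The enzymes between hexokinase and the splitting of the sugar showed no called change. *Gpi1*, which turns glucose 6-phosphate into fructose 6-phosphate, read 10.27, 10.30 and 10.44 in control tubes and 10.28, 10.13 and 10.54 with PTH, a change of -0.02 (limma adjusted p = 0.975). The groups overlapped fully. The phosphofructokinase genes *Pfkl*, *Pfkm* and *Pfkp*, named for liver, muscle and platelet, changed by 0.01, -0.08 and -0.20. By the brightest *Pfkl* probe the groups nearly coincided, with 10.29, 10.37 and 10.23 against 10.28, 10.41 and 10.23 and a 95% interval of the change from -0.27 to 0.29. A second and dim *Pfkl* probe was higher on every PTH array by 0.29 without passing (limma adjusted p = 0.406). The 3 tested probes of *Pfkp* gave -0.36, -0.20 and -0.09, and none passed. The probe at -0.36 was lower on every PTH array (limma adjusted p = 0.347), and the others overlapped between groups.

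Fructose 2,6-bisphosphate is the strongest activator of phosphofructokinase, and the *Pfkfb* genes encode the enzymes that make and remove it. *Pfkfb2* changed by -0.19 (limma adjusted p = 0.656). *Pfkfb4*, under its older symbol *C230090D14*, read 9.42, 9.40 and 8.97 in control tubes and 9.70, 9.70 and 9.29 with PTH. In each group array 3 was the low one and the groups overlapped through it, so the change of 0.30 (SE 0.18) did not pass (limma adjusted p = 0.519).

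Aldolase cuts the sugar into a pair of smaller units, and triose phosphate isomerase makes both usable. *Aldoa*, the main aldolase of most tissues, read 11.74, 11.70 and 12.11 in control tubes and 11.57, 11.50 and 12.03 with PTH, a change of -0.15 (limma adjusted p = 0.778). Array 3 was the high one in both groups, and the distance between arrays of a group exceeded the change. *Aldoc*, the aldolase of brain, had the lowest fold change after *Hk3*, but it was dim and above background on 4 of the 6 arrays. Its signals were 6.11, 4.98 and 5.63 against 5.36, 4.57 and 5.39, and the change of -0.47 (SE 0.32) had a 95% interval from -1.21 to 0.28 (limma adjusted p = 0.574). The brightest *Tpi1* probe read 13.36, 13.43 and 13.28 against 13.21, 13.29 and 13.38, a change of -0.06. Its other tested probes gave -0.01 and 0.64, the latter from a dim probe with a limma adjusted p of 0.267, so the 3 probes of this gene did not point one way.

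The lower part of the route recovers energy as ATP, and none of its 8 tested genes was called. *Gapdh*, listed as *Gapd*, read 14.84, 14.86 and 14.61 in control tubes and 14.70, 14.86 and 14.64 with PTH, and changed by -0.04 with a 95% interval from -0.35 to 0.27. This gene is widely used as a reference for other transcripts, and its 3 probes gave changes between -0.04 and 0.00. *Eno1*, the common enolase, read 12.21, 12.31 and 12.41 against 12.30, 12.26 and 12.35, a change of 0.00 (limma adjusted p = 0.994). *Pkm2*, the array's symbol for the pyruvate kinase gene of most tissues, read 13.32, 13.30 and 13.35 against 13.34, 13.32 and 13.24, a change of -0.02 with a 95% interval from -0.28 to 0.24. For these 3 genes the groups overlapped and a change of 1.5-fold lay outside the interval.

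*Pgk1*, phosphoglycerate kinase, read 11.71, 11.65 and 11.72 in control tubes and 11.59, 11.93 and 12.03 with PTH. One PTH array lay below the control arrays and the others above, and the change was 0.16 (limma adjusted p = 0.696). *Pgam1*, phosphoglycerate mutase, had the third largest rise of the list at 0.36 (SE 0.18), from 9.47, 9.31 and 9.81 to 9.72, 9.80 and 10.15, with overlapping groups (limma adjusted p = 0.418). The muscle forms *Pgam2* and *Eno3* changed by 0.29 and 0.07 and the neuronal form *Eno2* by 0.20, none of them called. Of 22 skeletal muscle markers 12 were above background on no array, among them creatine kinase (*Ckm*) and skeletal actin (*Acta1*). Of the 5 that could be tested *Cox6a2* was called lower, beside 1.04% of all genes called lower.

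**Figure D3:**
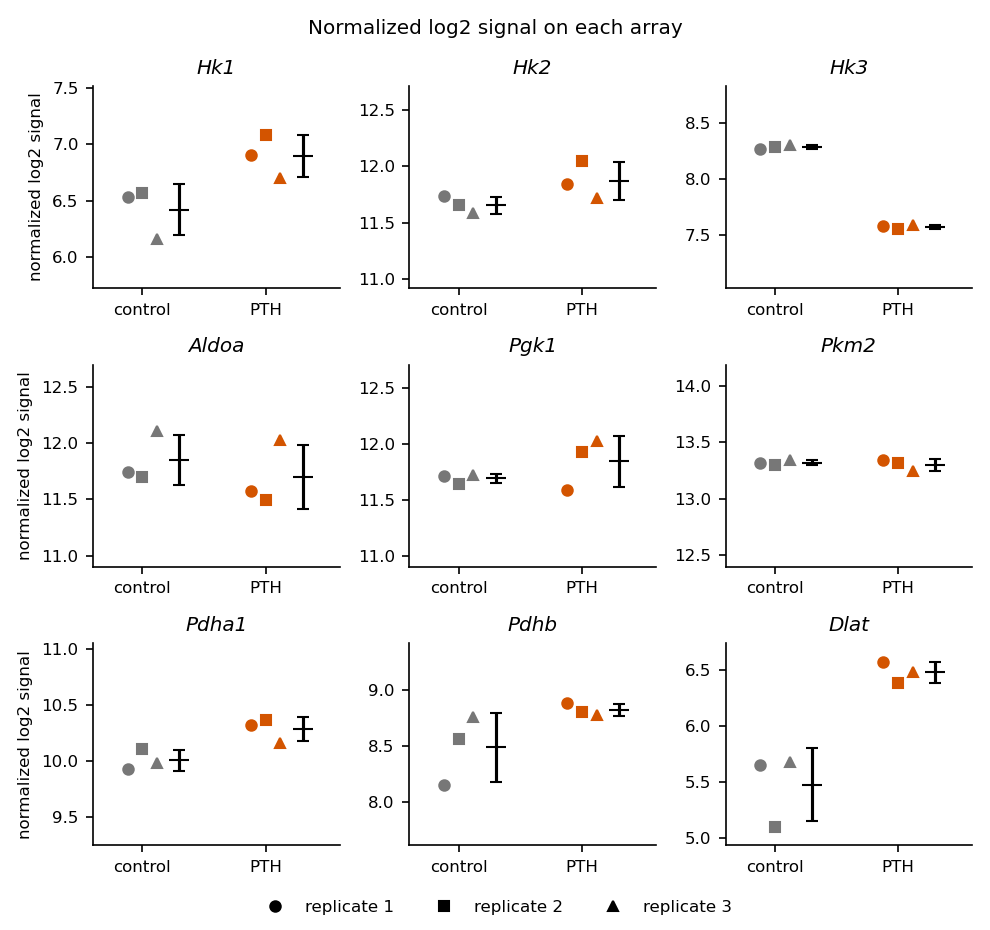
Normalized log2 signal on each array for 9 enzyme genes, with control arrays in grey and PTH arrays in orange, marker shapes for the replicate number and bars for the mean ± SD (n = 3). All panels span the same 1.8 log2 units. The groups stand apart for *Hk1*, *Hk3*, *Pdha1*, *Pdhb* and *Dlat* and overlap for *Hk2*, *Aldoa*, *Pgk1* and *Pkm2*, and for *Aldoa* the arrays numbered 3 are the high ones in both groups.

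At the end of glycolysis pyruvate can be reduced to lactate. *Ldha*, listed as *Ldh1*, encodes the lactate dehydrogenase subunit that favours lactate formation, and read 12.96, 12.76 and 13.02 in control tubes and 12.80, 12.60 and 12.63 with PTH. PTH array 1 lay above control array 2, so the groups overlapped, and the change was -0.24 (SE 0.13, limma adjusted p = 0.471). *Ldhb*, listed as *Ldh2*, the subunit of heart and other oxidative tissues, changed by 0.06 with a 95% interval from -0.22 to 0.35. Neither subunit passed, and no tested member between *Gpi1* and lactate dehydrogenase was called.

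The pyruvate dehydrogenase complex is built from a decarboxylase (E1, *Pdha1* and *Pdhb*), a transacetylase core (E2, *Dlat*) and a dehydrogenase (E3, *Dld*). *Dlat* rose. Its log2 signals were 5.65, 5.10 and 5.68 in control tubes and 6.57, 6.38 and 6.48 with PTH, above background on all 6 arrays. The PTH arrays all exceeded the control arrays, and the rise was 1.00 on the log2 scale (SE 0.18, limma adjusted p = 0.0391), which is 2.00-fold. The gene has 1 probe here and a dim one. Its deposited signals were 139, 140 and 141 without the hormone and 167, 174 and 223 with it, not far above the median probe, so the size of the fold depends on how the background is taken. Without background correction the change was 0.40 (limma adjusted p = 0.0150), below the 1.5-fold limit of a call. With any 1 of the 6 arrays left out the *Dlat* change lay between 0.82 and 1.11 and was not called (limma adjusted p 0.0792 to 0.130), nor was it with no detection filter (0.0753).

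By their brightest probes both E1 subunits lay higher on every PTH array but did not pass. *Pdha1* read 9.93, 10.11 and 9.98 against 10.32, 10.37 and 10.16, a change of 0.28 (SE 0.13, limma adjusted p = 0.362). The brightest *Pdhb* probe read 8.15, 8.56 and 8.76 against 8.89, 8.81 and 8.78, a change of 0.33 (SE 0.17, limma adjusted p = 0.428). Control array 3 and PTH array 3 nearly touched, at 8.76 and 8.78, so the separation is narrow. The 4 tested *Pdhb* probes gave changes from 0.05 to 0.42, all above 0, but for all except the brightest the groups overlapped. *Dld*, which the complex shares with other dehydrogenases, read 7.35, 7.60 and 7.45 against 7.97, 7.43 and 7.65, overlapping groups with a change of 0.21 (limma adjusted p = 0.623), and *Pdhx*, the protein that ties E3 to the core, was on no array.

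Kinases switch the complex off by phosphorylating E1, and phosphatases switch it back on. *Pdk1*, a kinase known to be raised when oxygen is low, read 7.20, 6.82 and 7.05 in control tubes and 6.59, 6.61 and 6.94 with PTH, the third lowest change of the list at -0.31 (SE 0.16, limma adjusted p = 0.422). Its groups overlapped through PTH array 3. *Pdk4*, the kinase of fasting and fat use, read 9.01, 8.98 and 8.73 against 8.83, 9.03 and 8.84 and changed by -0.01, with a 95% interval from -0.33 to 0.30. *Pdk3* changed by -0.02. The phosphatase genes *Pdp1* (listed as *Ppm2c*) and *Pdp2* (listed as *4833426J09Rik*) and the regulator *Pdpr* (listed as *4930402E16Rik*) changed by -0.17, 0.09 and -0.21. With *Dld* these make 4 tested partners of the complex, of which limma called 0, with 0 at an unadjusted p and 0 by the methods' t-test.

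Sequence near the start of the called genes is shown because PTH is known to act through cyclic AMP and because many glycolysis genes are known targets of the hypoxia factor. Promoter windows of 300 bases, from 250 bases before a gene's start to 50 after, were taken from RefSeq (GRCm38.p6) for all 34 genes, which have 54 windows. The hypoxia response core, ACGTG or GCGTG on either strand, stood in 38 of the 54 windows (70.4%), beside 43.8% of all 32851 windows. Member windows were also richer in G and C, with a median of 57.5% beside 52.7%. The full cyclic AMP response element, TGACGTCA, stood in 1 of 54 (1.85%, beside 1.79%) and its short form, TGACG, which the full element contains, in 13 (24.1%, beside 20.8%). The lines below give 27 bases around 1 match in each called gene, 5′ to 3′ on the gene's strand. The *Hk3* stretch, chr13:55021526-55021552 on the minus strand, holds the hypoxia core in capitals as read from the opposite strand, at -156 from the gene's start. The *Dlat* stretch, chr9:50659966-50659992 on the minus strand, holds the cyclic AMP short form in capitals, again from the opposite strand, at -201. A match of so few letters is a description and not a binding site.
Hk3: ctacattttgaCACGTtgcctagttca
Dlat: ccctgatccccCGTCActcgagggcct

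Genes around the route were examined as lists. Of 13 carriers and partners for glucose, lactate and pyruvate 7 were tested and limma called 0. At an unadjusted p under 0.05 limma passed 3 of the 7, beside 14.9% of all genes, and the methods' t-test 3. The median change of the 7 was -0.47. *Slc2a1* (GLUT1), the basal glucose carrier, read 9.53, 9.50 and 9.46 against 9.81, 9.69 and 9.77, higher on every PTH array by 0.26 (SE 0.11, limma adjusted p = 0.343). *Slc2a3* (GLUT3), a carrier of high affinity, read 7.96, 7.86 and 7.94 against 7.66, 7.32 and 7.31, lower on every PTH array by -0.49 (SE 0.14, limma adjusted p = 0.162). So the changes of these carriers had opposite signs, and neither passed. *Slc2a10* was also lower on every PTH array (-0.57, limma adjusted p = 0.151), while *Slc2a6* (-0.48), *Slc2a8* (-0.29), the lactate exporter *Slc16a3* (-0.47) and *Mpc2* (0.40, listed as *2610205H19Rik*), a subunit of the mitochondrial pyruvate carrier, overlapped between groups. The lactate carriers *Slc16a1* and *Slc16a7*, their chaperone *Bsg*, *Mpc1*, *Slc2a4* and *Slc2a12* were not tested.

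The citric acid cycle, which burns the acetyl-CoA, had 14 of 16 genes tested and 0 called by limma, with 1 at an unadjusted p and 1 by the methods' t-test. Its median was 0.08. Its largest change was that of *Fh1* (fumarase), which read 8.56, 8.60 and 8.64 against 8.97, 8.96 and 9.06, higher on every PTH array by 0.40 (limma adjusted p = 0.159). *Ogdh*, of the oxoglutarate dehydrogenase complex, followed at -0.23 with overlapping groups.

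Of 13 hypoxia-inducible genes outside glycolysis that were tested 1 was called, *Car12*, a carbonic anhydrase of the cell surface, which fell from 9.45, 9.21 and 9.19 to 7.82, 8.19 and 7.83, a change of -1.34 (SE 0.15, limma adjusted p = 0.00774). *Mxi1*, a repressor of Myc targets, read 6.06, 6.24 and 6.32 against 6.96, 6.73 and 7.00 and missed the threshold with a change of 0.69 (limma adjusted p = 0.0587). The call of 1 in 13 stood beside 1.73% of all genes. *Vegfa*, the vessel growth factor, was higher on every PTH array by 0.42 (limma adjusted p = 0.223). *Egln3* was lower on every PTH array by -0.34 (limma adjusted p = 0.266), and *Ndrg1* changed by -0.57 with overlapping groups. At an unadjusted p under 0.05 limma passed 5 of the 13, beside 14.9% of all genes, and the methods' t-test 5. The groups did not overlap for 5, with 3 higher and 2 lower, beside 21.9% of all genes. The median of the list was 0.08, beside 0.01 for all genes.

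**Figure D4:**
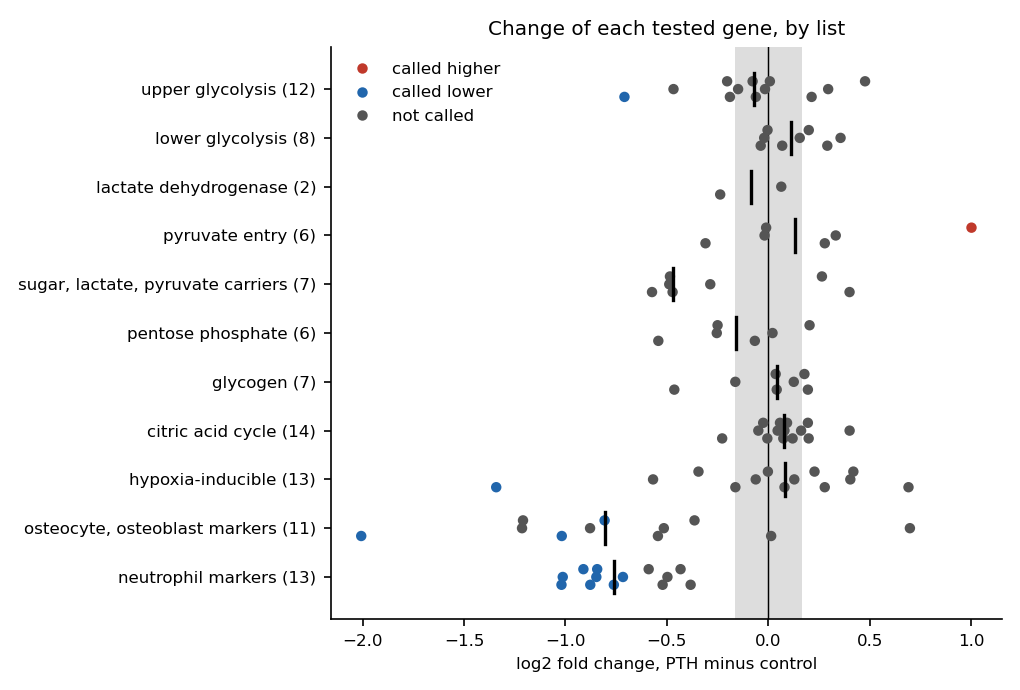
Log2 fold change with PTH of each tested gene (points) by list, with the number of genes in brackets, the list median as a black bar and the quartiles of all genes tested (-0.16 and 0.17) as a grey band. The medians of the enzyme groups, the pentose phosphate and glycogen genes, the citric acid cycle and the hypoxia-inducible genes lie within or at the edge of the band, and those of the carriers, the osteocyte and osteoblast markers and the neutrophil markers lie below it.

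Marker transcripts of several cell types differed between the groups, which in bulk RNA does not separate cell number from transcript per cell. Called lower with PTH were 3 of 11 osteocyte and osteoblast genes (*Ibsp*, *Mepe* and *Sp7*, list median -0.81), both tested red cell genes (*Hba-a1* and *Hbb-b1*, -1.98 and -1.89) and 1 of 4 cartilage genes (*Acan*, listed as *Agc1*, -1.06). Called higher were 3 of 6 osteoclast genes (*Acp5*, *Mmp9* and *Oscar*, list median 0.79), while *Calcr*, *Atp6v0d2* and *Ocstamp*, also of osteoclasts, were on no array. Over all genes tested, 1.04% were called lower and 0.685% higher. Within the osteocyte and osteoblast list *Pdpn*, listed as *Gp38*, was higher on all PTH arrays by 0.70 without passing (limma adjusted p = 0.0560) and *Col1a2* changed by 0.01, and within the osteoclast list *Nfatc1* changed by -0.13. The summed osteoclast log2 signal was 13.69 to 13.82 in control tubes and 14.08 to 14.41 with PTH, and the summed osteocyte and osteoblast signal 15.34 to 15.43 and 14.83 to 14.95. Of 4 fat genes limma called 0, with 2 at an unadjusted p and 0 by the methods' t-test, and of 6 endothelial genes 0, with 0 at an unadjusted p and 0 by the methods' t-test. Among all genes tested 14.9% passed at an unadjusted limma p under 0.05. The part of these cell types in the changes of the enzyme genes was not tested.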

How the data were processed

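Bone tubes were profiled on an Illumina mouse bead array, 3 control and 3 PTH arrays, grouped by their sample titles. The authors deposited an intensity for each probe on every array, linear and neither normalized nor background subtracted, and a detection p-value from GenomeStudio (version not given) that sets each probe against the negative controls. All columns of the table were used. From these, normexp background correction by way of the detection p-values, offset 16, quantile normalization and log2 were computed (neqc in limma 3.58.1, R 4.3.3), followed by limma's moderated test (lmFit, eBayes), adjusted by Benjamini-Hochberg over 16214 probes. The limma step alone was tested on log2 values simulated from these arrays, so that test did not cover background correction or scaling. Precision is limited by the 3 arrays a group. For a single gene the smallest two-sided p of an exact permutation test is 0.1.

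The members and lists were chosen with earlier results of these data known. Values on every array are given for called members, the 3 largest rises and falls, and the brightest member of each step; other genes are named where called, among the 2 largest changes of their list, or as carriers. One gene that this rule names is not reported here. *Chi3l3*, *Cd68*, *Csf1r*, *Lyz2*, *Adgre1*, *C1qb*, *C1qc*, *Cd14*, *Pdpn*, *Col1a2*, *Nfatc1*, *Vegfa*, *Egln3*, *Ndrg1*, *Dld* and the genes of the complex's phosphatases were named after their values were seen. Current names came from RefSeq (GRCm38.p6). The probes' sequences were not used, so related transcripts may share a probe. Alternatives were other background corrections, scalings, filters, probe rules and thresholds, the methods' t-test, the replicate number as a block and each array left out. The methods' t-test is Student's, which the paper names for comparing 2 groups in general, run here on the normalized log2 signals. For the arrays themselves the paper used a differential expression score from GenomeStudio, which was not computed here.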

Additional observations from a re-analysis of the deposited data

How the results depend on the processing

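The 2 calls, *Hk3* and *Dlat*, kept their direction under every alternative run but were near the limit. The number of enzyme genes called stayed at 2 under normexp with an offset of 50, cyclic loess, the mean of a gene's probes, no minimum fold change, an unadjusted p with the fold minimum, and with the 4 older-name genes added, an alternative chosen after seeing the data. It was 0 (0 higher, 0 lower) under quantile normalization alone, where both passed the adjusted p but not 1.5-fold. It was 1 under median scaling (0 lower), where *Dlat* was called and the members' median was 0.15 beside 0.12 for all genes, and 1 (0 higher) both without a detection filter and with detection p under 0.01 on all 6 arrays, where *Hk3* was called. Without the filter the limma adjusted p of *Dlat* was 0.0753, and under the stricter filter it was not among the 20 members tested. The methods' t-test passed 4 genes (3 higher) unadjusted, adding *Hk1* and *Pdha1*, and 1 (0 higher) after Benjamini-Hochberg. Taking the mean of a gene's probes moved the median to 0.083. With any 1 array left out, 0 were called in either direction. *Hk3* then changed by -0.72 to -0.69 (limma adjusted p 0.0685 to 0.110) and *Dlat* by 0.82 to 1.11 (0.0792 to 0.130), and 1 to 3 neutrophil markers were called in place of 8. Apart from the alternatives' own construction, the cause was not tested. Of the 28 enzyme genes tested, older names included, 9 changed the sign of an uncalled fold change under some alternative, 8 of them under median scaling. Over all genes, 207 calls became 44 to 279 under the adjusted tests with limma and 1783 with the unadjusted t-test, and the share of higher calls was 39.6%, and 60.6% under median scaling.

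Deviations from the group means correlated at 0.07, 0.06 and 0.27 between control and PTH arrays of the same number, 1, 2 and 3. Control array 1 with PTH array 2, and control array 2 with PTH array 1, also correlated at 0.07. The arrays numbered 3 correlated at -0.14 to -0.13 with those of other numbers. Deviations within a group sum to 0, so these negative values follow in part from the 0.27 and add little to it. By the 0.27 the arrays numbered 3 shared variation, while numbers 1 and 2 did not tell the arrays apart. With the replicate block 0 enzyme genes were called (0 higher, 0 lower), with limma adjusted p-values of 0.0824 for *Hk3*, 0.0697 for *Dlat* and 0.0517 for *Car12*, 0 neutrophil markers, and 44 genes in all. A slide block was not run, since the files name no slide. Signal over background limits *Dlat*, *Aldoc*, *Eno2* and *Pfkfb2*, and the 6 untested genes.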

Other observations

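The pentose phosphate pathway branches off after hexokinase and makes NADPH and ribose. Of 6 genes tested limma called 0, with 1 at an unadjusted p and 2 by the methods' t-test. The median log2 fold change was -0.16. *Rpia*, which forms ribose 5-phosphate, read 7.74, 7.54 and 7.61 in control tubes and 6.96, 7.02 and 7.29 with PTH, lower on every PTH array by -0.54 (limma adjusted p = 0.120). *Taldo1*, transaldolase, was also lower on every PTH array (-0.25, limma adjusted p = 0.409). Glycogen metabolism had 7 of 13 genes tested and 0 called by limma, with 1 at an unadjusted p and 1 by the methods' t-test, and a median of 0.04. *Pygl*, the glycogen phosphorylase named for liver, read 8.66, 8.73 and 9.07 against 8.17, 8.42 and 8.47, lower on every PTH array by -0.46 (limma adjusted p = 0.226).

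Of 10 transcription factors known to act on glycolysis genes 8 were tested and limma called 0, with 0 at an unadjusted p and 0 by the methods' t-test. Their median was -0.19. *Myc* changed by -0.41 (limma adjusted p = 0.418) and *Foxo3* by -0.34, both with overlapping groups. Among other isozymes *Ldhc* changed by 0.30 and *Bpgm* by 0.05, and of other glucose synthesis enzymes *G6pc3* changed by -0.13, none of them called.

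The arrays numbered 3 were the highest of their group for many of the enzyme genes. Control array 3 was the highest control array for 11 of 24 (45.8%, beside 33.2% of all genes), PTH array 3 the highest PTH array for 12 of 24 (50%, beside 32.8%), and both for 8 (33.3%, beside 15.95%), *Aldoa* among them. These arrays also had the most probes above background, 17369 and 17374. The part of this difference in the results was not tested.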
